A study of Mus musculus with 2 samples.

Results

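The axon guidance genes measured here were 69 of the 32285 features of the deposited count tables, chosen by symbol as the semaphorins of classes 3 to 7, plexins, neuropilins, Slits, Robos, netrins, Unc5 receptors, Dcc, ephrins and Eph receptors. They comprised 35 ligands and 34 receptors, by family 20 semaphorins, 11 plexins and neuropilins, 7 Slits and Robos, 9 netrins and netrin receptors, 8 ephrins and 14 Eph receptors. Each is expressed as unique molecular identifiers (UMIs), the single RNA molecules that the 10x Genomics droplet assay counts near their 3′ ends. The tissue was whole mouse pancreas at embryonic day 14.5. The Null library pooled 3 pancreata from 3 litters with the genotype Fgf9 -/-. For the Control library, 8 pancreata of the genotypes Fgf9 +/+ and +/- were pooled, also from 3 litters. All were C57BL/6J mice of a line in which a LacZ cassette inserted at Fgf9, the gene of a secreted growth factor, abolishes its function, in all tissues of the Null embryos.

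Axon guidance molecules steer growing nerve fibres and also position migrating cells and vessels. Secreted class 3 semaphorins act through neuropilin and plexin receptors, Slits act through Robo receptors, and netrins act through Dcc, which attracts, and Unc5 receptors, which repel. Ephrins are bound to the cell membrane and signal to Eph receptors on a touching cell, which keeps neighbouring cell groups apart. Transmembrane semaphorins and ephrins can signal back into their own cell, so the split into ligands and receptors is a simplification. In the vessel wall, Sema3e binds Plxnd1 directly, without a neuropilin, and repels endothelial cells.

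That ligand and receptor are shown by the bases before their start sites, because Sema3e had the largest Null to Control ratio among the members named below and Plxnd1 was among the most cell-type restricted. The 250 bases before each start come from RefSeq in the GRCm38.p6 build, at chr5:14025026-14025275 on the plus strand for Sema3e and chr6:115995006-115995255 on the minus strand for Plxnd1. Capitals mark GGAA and its complement TTCC, the core letters of ETS factor motifs, searched on both strands.
Sema3e: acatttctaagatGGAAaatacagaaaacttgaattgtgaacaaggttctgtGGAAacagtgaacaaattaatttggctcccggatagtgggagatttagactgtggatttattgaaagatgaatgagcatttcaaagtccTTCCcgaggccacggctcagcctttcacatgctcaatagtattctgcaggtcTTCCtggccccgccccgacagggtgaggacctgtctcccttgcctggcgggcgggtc
Plxnd1: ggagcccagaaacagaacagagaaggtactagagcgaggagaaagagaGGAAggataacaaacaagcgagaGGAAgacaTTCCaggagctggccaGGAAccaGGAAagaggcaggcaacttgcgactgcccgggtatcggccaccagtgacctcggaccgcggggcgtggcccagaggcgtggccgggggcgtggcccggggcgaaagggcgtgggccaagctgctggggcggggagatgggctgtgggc
Sema3e held 4 matches and Plxnd1 5. Among 32851 mouse promoters of the same length 93.4% held at least 1 match, with a median of 3. At least 4 were found in 33.4% and at least 5 in 18.0%, so such counts were common.

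The Null library held 16708 barcodes with 271129120 UMIs and the Control library 30209 barcodes with 339959625 UMIs. After filtering, 8884 Null barcodes (median 24259 UMIs) and 26959 Control barcodes (median 5728 UMIs) were kept, and 180 barcode sequences occurred in both libraries. Each group is 1 pooled library, so there is no replicate check and no test. Intervals are exact 95% intervals that cover counting error only. Fgf9 itself stood at 1.70 CPM (counts per 1000000 UMIs of the same cells) in the Null library and 9.25 CPM in the Control library. The labels do not say where the LacZ cassette lies, so UMIs near the 3′ end do not check the allele. Xist, expressed from the inactive X of females, was measured at 0.290 CPM in the Null library and 384 CPM in the Control library. The libraries therefore differed in the sex of their embryos as well as in genotype, and these cannot be told apart. Efnb1, Plxna3 and Plxnb3 are the members on the X chromosome.

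Cells were clustered without the members and named from marker genes as mesenchymal-like, mural-like, mesothelial-like, endothelial-like, neural-like, immune-like, acinar-like, ductal or bipotent progenitor-like, endocrine progenitor-like and endocrine-like, shortened below to the class name. An unnamed cluster of low UMI counts held 351 Null barcodes (median 1200 UMIs) and 11019 Control barcodes (median 1657 UMIs), and served as the level of free RNA. Hbb-bs, AY036118 and Gm42418 led it, and it stayed unnamed because its leading genes held markers of another class. Free RNA, estimated from acinar enzyme UMIs, made up 8.04% of the mesenchymal UMIs in the Null library and 22.4% in the Control library. For mesothelial cells it made up 7.70% in the Null library and 18.1% in the Control library. The makeup of these classes differed between libraries. Among mesenchymal clusters, 202 (led by Lum, Mgp and Dcn) held 281 Null and 43 Control cells, low-UMI cluster 203 held 260 Null and 43 Control cells, and cluster 212 (led by Stmn2, Trac and Mgp) held 74 Null cells and 1 Control cell. Cluster 200 (led by Aspn, Prrx1 and Htra1) held 4 Null and 1170 Control cells, and cluster 201 held 51 Null and 690 Control cells. Among mesothelial clusters, 6 (led by Upk3b, Cav1 and Aldh1a2) held 299 Null and 1082 Control cells, low-UMI cluster 11 held 380 Null and 616 Control cells, and cluster 24 (with Oprk1, Prph and Upk3b among its leading genes) held 189 Null and 26 Control cells. The ductal class included cluster 123 (led by Onecut2, Slc2a3 and Tspan8), with 57 Null and 0 Control cells. Null values of the ductal class below include these cells.

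Every family of guidance genes was detected, from 17 UMIs of Epha10 to 40987 UMIs of Nrp1 over all kept cells of both libraries. For 50 of the 69 members the class with the highest CPM was the same in both libraries. Endothelial cells were that class for 11 members, mesothelial cells for 10, neural cells for 7 and mesenchymal cells for 6. Endocrine progenitors were highest for 5, immune, acinar and ductal cells for 3 each, and mural and endocrine cells for 1 each. The same counts over all features are not given here, so these are not read as a trait of guidance genes. Some were near ties, such as Epha7 in the Null library, at 78.5 CPM in neural and 77.7 CPM in mesothelial cells. All values below compare a gene between classes or libraries, not genes with each other, because a 3′ count depends on how well each gene's end is captured.

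**Figure D1:**
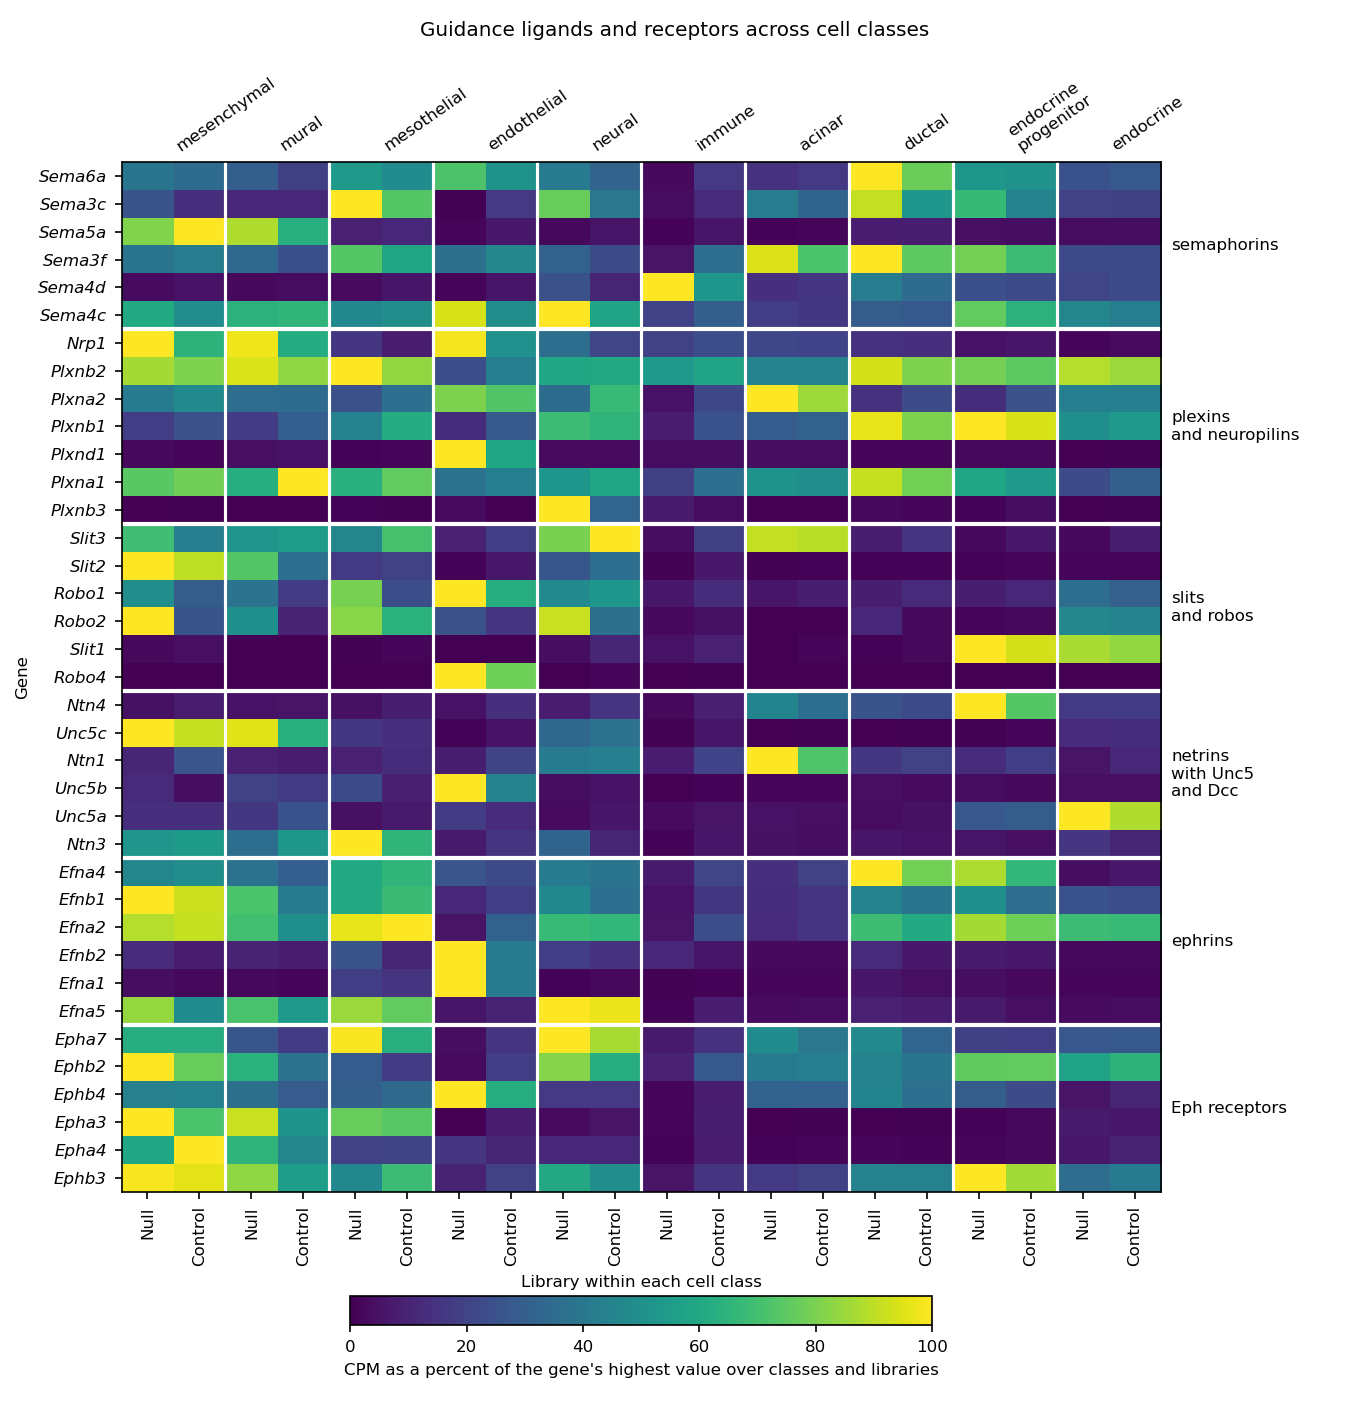
Levels of up to 6 members per family with the most UMIs, and of Plxnb3, by cell class (columns, Null left and Control right within each class). Colour gives the CPM as a percent of that gene's highest value over all classes and libraries. The endothelial columns of Plxnd1 and Robo4 and the mesenchymal columns of Slit2 and Unc5c stand out. Mural cells come next for Slit2 and Unc5c, at 191 and 119 CPM in the Null library.

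Among semaphorins, the secreted ligands Sema3a, Sema3c and Sema3d were highest in mesothelial cells and Sema3f in ductal cells. Sema3a, a repellent for neuropilin-bearing axons, stood at 67.2 CPM in Null and 41.9 CPM in Control mesothelial cells. Sema3d, chosen after its values were seen, stood at 69.1 CPM there in the Null library and 48.9 CPM in the Control library. Sema3c was also highest in mesothelial cells, at 61.9 and 45.7 CPM in the Null and Control libraries, and was at 56.2 and 32.4 CPM in ductal cells. Of the transmembrane members, Sema6a was highest in ductal cells, at 119 CPM in the Null library and 92.0 CPM in the Control library. Sema5a was a gene of the stroma, with 160 CPM in Null and 197 CPM in Control mesenchymal cells, against at most 22.5 CPM in each class other than mesenchymal and mural cells. Sema3f, a ligand of Nrp2, was highest in ductal cells at 30.5 CPM in the Null library and 23.0 CPM in the Control library. Sema4c varied less, with at most 30.9 CPM in the Null library (neural cells) and 20.2 CPM in the Control library (mural cells). Sema4d, which acts in the immune system, was highest in immune cells, at 55.5 CPM in the Null library and 29.1 CPM in the Control library.

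Neuropilins and plexins, the semaphorin receptors, differed in the class where they were highest. Nrp1 reached 341 CPM in Null and 221 CPM in Control mesenchymal cells, and 212 CPM in Control mural cells. In endothelial cells it reached 335 CPM in the Null library and 173 CPM in the Control library. In endocrine cells it was at 6.30 CPM in the Null library and 9.84 CPM in the Control library. Plxna4, the partner of neuropilins for Sema3a, was highest in mesothelial cells at 163 CPM in the Null library and 95.2 CPM in the Control library, so the class with the most Sema3a also held the most Plxna4. Plxnb2 was found in every class, and its values ran from 16.5 to 68.4 CPM in the Null library and from 29.4 to 58.0 CPM in the Control library. Plxnb1 was highest in endocrine progenitors at 44.1 CPM in the Null library and 41.4 CPM in the Control library, and Plxna2 in acinar cells at 59.0 and 50.4 CPM. Plxna1 was highest in ductal cells of the Null library, at 21.7 CPM, and in mural cells of the Control library, at 23.7 CPM.

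Slit ligands were spread over different classes. Slit2 stood at 261 CPM in Null and 236 CPM in Control mesenchymal cells, and at 191 and 95.3 CPM in mural cells of the Null and Control libraries. Slit3 stood at 49.4 CPM in Null and 48.8 CPM in Control acinar cells, and Slit1 at 16.1 and 15.0 CPM in endocrine progenitors of the Null and Control libraries. In the Control library Slit3 was highest in neural cells, at 54.3 CPM. Robo1, a Slit receptor, was highest in endothelial cells at 49.9 CPM in the Null library and 31.1 CPM in the Control library. Robo2 was highest in mesenchymal cells of the Null library, at 22.1 CPM, and in mesothelial cells of the Control library, at 14.1 CPM. In endocrine cells Robo2 stood at 10.3 CPM in the Null library and 9.90 CPM in the Control library.

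The netrins Ntn4 and Ntn1 were highest in epithelial classes, and the receptors Unc5c and Unc5b outside them. Ntn4, a netrin found in basement membranes, was highest in endocrine progenitors at 77.5 CPM in the Null library and 57.0 CPM in the Control library. Ntn1 was highest in acinar cells at 21.7 CPM in the Null library and 15.8 CPM in the Control library. Ntn3 was an exception, highest in mesothelial cells at 16.6 CPM in the Null library and 10.9 CPM in the Control library. It shares exon bases with Tbc1d24 on the same strand. Unc5c was highest in mesenchymal cells at 125 CPM in the Null library and 114 CPM in the Control library. Mural cells came next, at 119 CPM in the Null library and 78.6 CPM in the Control library. Unc5a was highest in endocrine cells at 19.3 and 17.1 CPM in the Null and Control libraries, and Unc5b in endothelial cells at 92.7 and 41.4 CPM.

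Ephrins and Eph receptors were each divided by class. Efna4 was highest in ductal cells at 53.0 CPM in the Null library and 41.7 CPM in the Control library. Efnb1 was highest in mesenchymal cells, at 62.4 CPM in the Null library and 57.4 CPM in the Control library. Efna2 was highest in mesothelial cells at 38.2 CPM in the Null library and 39.7 CPM in the Control library, and Efna5 in neural cells at 48.7 and 47.3 CPM. Efna1 was highest in endothelial cells, where it stood at 187 CPM in the Null library and 76.2 CPM in the Control library. Among receptors, Epha3 stood at 129 CPM in Null and 92.4 CPM in Control mesenchymal cells, and at 98.7 and 95.3 CPM in mesothelial cells of the Null and Control libraries. Epha3 was at most 0.557 CPM in acinar cells of either library. Ephb2 was highest in mesenchymal cells, at 42.1 CPM in the Null library and 32.3 CPM in the Control library. Epha4 stood at 85.5 CPM in Null and 144 CPM in Control mesenchymal cells, and at 93.5 and 66.3 CPM in mural cells of the Null and Control libraries. Ephb3 stood at 22.4 CPM in Null and 21.7 CPM in Control mesenchymal cells. Epha7 was spread over epithelial, stromal and neural classes, with 78.5 CPM in Null and 68.3 CPM in Control neural cells and 37.8 and 31.1 CPM in acinar cells of the Null and Control libraries.

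Endothelial cells carried the most restricted members. Plxnd1 stood at 497 CPM (473 to 522) in the Null library and 293 CPM (279 to 308) in the Control library. The next class, mural cells, had 19.5 CPM in the Null library and 24.2 CPM in the Control library. Robo4, a Robo of the vessel wall, stood at 96.1 CPM in Null and 75.0 CPM in Control endothelial cells, and at no more than 1.17 CPM in any other class of either library. These and Plxnb3, at 10.7 CPM in Null and 3.50 CPM in Control neural cells, were the members with at least 5 times the CPM of the next class in both libraries. Plxnb3 rested on few UMIs, 72 over all kept cells of both libraries. Robo4 UMIs were found in 63.7% of Null and 55.0% of Control endothelial cells (medians 18493 and 14435 UMIs). In acinar cells, which should lack Robo4, the shares were 0.233% and 0.25% (medians 47210 and 31580 UMIs in the Null and Control libraries). After thinning each cell to 2000 UMIs, the endothelial shares were 17.4% (11.7 to 24.5) in the Null library and 11.8% (8.32 to 16.1) in the Control library.

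**Figure D2:**
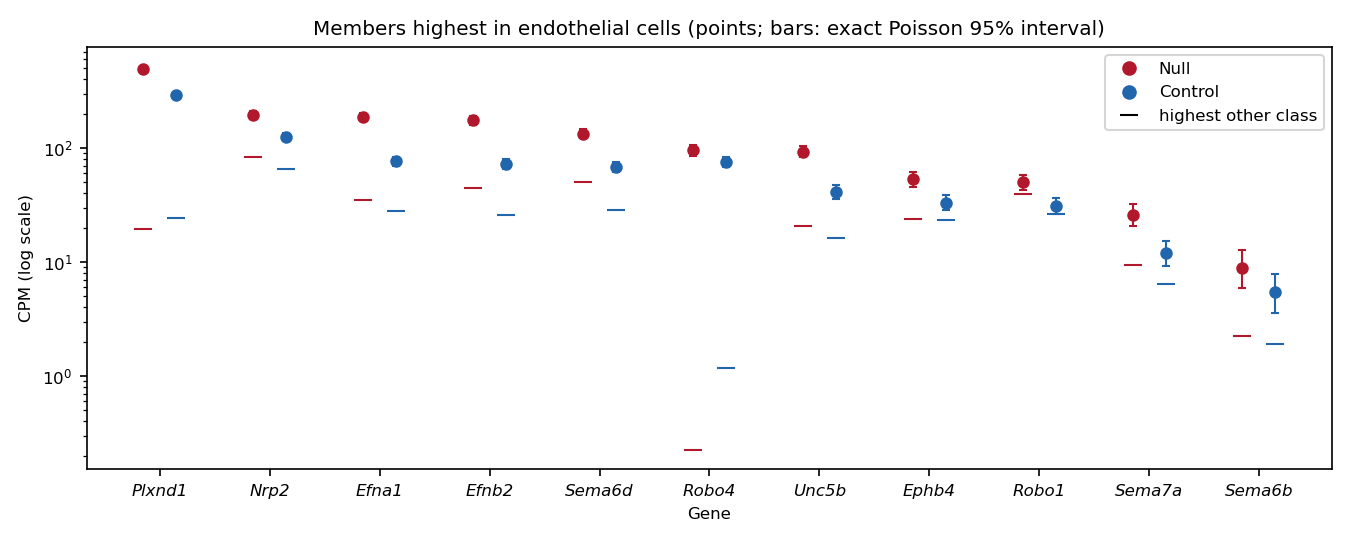
CPM (log axis) of the 11 members highest in endothelial cells in both libraries, Null left and Control right for each gene, with exact Poisson 95% intervals. Short dashes mark the highest other class; for Robo4 it lies near 1 CPM or below.

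With 179 Null and 318 Control cells, endothelial cells were too few in the Null library for the minimum of 200 and were not compared. The artery ephrin Efnb2 stood at 174 CPM in Null and 72.7 CPM in Control endothelial cells. Its venous receptor Ephb4 stood at 53.2 CPM in the Null library and 33.2 CPM in the Control library. The 10 endothelial markers, none at 0, summed to 4944 CPM in the Null library and 3042 CPM in the Control library. Acinar enzymes summed to 1597 CPM in Null and 4135 CPM in Control endothelial cells. A repeat doublet call marked 0.559% of the Null and 18.6% of the Control endothelial cells. What part these differences have in the member levels was not tested.

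In mesenchymal cells, the connective tissue around the epithelium, receptors made up most of the members that were higher in the Null library. At least 2-fold higher in Null were 10 of the 59 members measured (20 UMIs or more over both libraries), against 5.12% of all 14533 features measured. At least 2-fold lower were 4, against 6.36% of all features. Of 28 receptors 7 were at least 2-fold higher and 1 lower, and of 31 ligands 3 were higher and 3 lower. The median log2 ratio was 0.37 for receptors, 0.08 for ligands and 0.01 for all features. The libraries filled this class from different clusters, chiefly 202 and 203 in the Null library and 200 and 201 in the Control library. Mural markers summed to 961 CPM in Null and 482 CPM in Control mesenchymal cells, with 7 of 9 higher in Null and none at 0, while epithelial markers summed to 243 CPM in Null and 608 CPM in Control cells, with 0 of 8 higher. The part of these lists in the ratios was not tested.

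**Figure D3:**
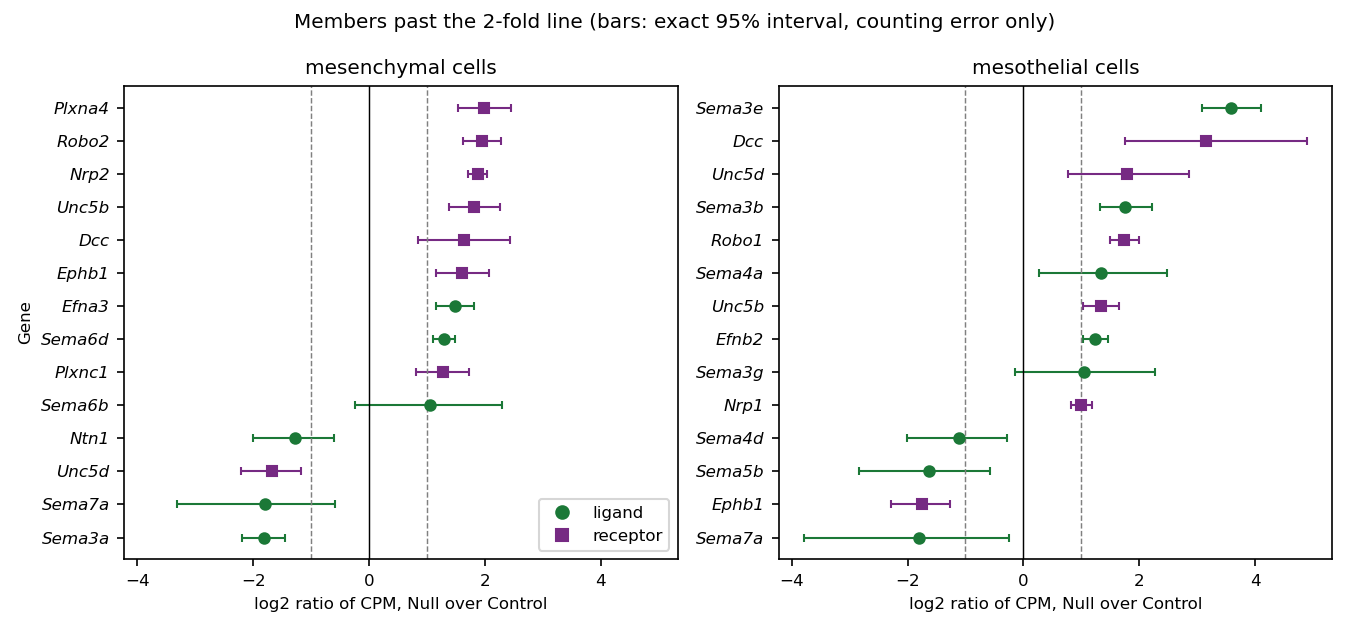
Log2 ratio of CPM, Null over Control, for each member at least 2-fold apart with at least 20 UMIs in mesenchymal (left) or mesothelial (right) cells. Circles are ligands, squares receptors, bars exact 95% intervals for counting error and dashed lines the 2-fold lines; Sema3e in mesothelial cells lies farthest from 0, at 3.58.

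Of the semaphorin genes and their receptors named by rule, Nrp2, Plxna4 and Sema6d were higher in Null and Sema3a was lower. Nrp2 (GRCm38 chromosome 1, 62703285 to 62818695, plus strand), the neuropilin that binds class 3 semaphorins such as Sema3f, stood at 77.8 CPM in Null and 21.2 CPM in Control mesenchymal cells, a log2 ratio of 1.87 (1.71 to 2.04). Its UMIs were uneven between clusters: cluster 212 had 216 CPM in the Null library, while within cluster 205 the values were 62.5 CPM in Null and 41.9 CPM in Control cells. In cluster 202 the order was the opposite, with 67.8 CPM in Null and 97.4 CPM in Control cells, and with clusters weighted alike the ratio was 0.39. Plxna4 stood at 11.7 CPM in Null and 2.96 CPM in Control cells, a ratio of 1.98 (1.53 to 2.45), and 60 of its 104 Null UMIs lay in cluster 212 and 19 in cluster 214. In the clusters with at least 20 cells of each library its ratio was -0.55, so the class value rested on clusters that held 1 Control cell each. Plxna4 shares exon bases with an antisense gene, and strand use in the counting is not known. Sema6d, a transmembrane semaphorin, stood at 50.1 CPM in Null and 20.5 CPM in Control cells, a ratio of 1.29 (1.10 to 1.48). Sema3a was lower in the Null library, at 7.55 CPM against 26.4 CPM in the Control library, a ratio of -1.81 (-2.19 to -1.44). In cluster 205, which both libraries filled, Sema3a stood at 2.50 CPM (0.515 to 7.30) in Null and 24.9 CPM (18.1 to 33.5) in Control cells.

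Receptors for Slits, netrins and ephrins and the ephrin Efna3 were the other genes named by rule. Robo2 (chromosome 16, 73891839 to 74411825, minus strand) stood at 22.1 CPM in Null and 5.71 CPM in Control mesenchymal cells, a log2 ratio of 1.95 (1.63 to 2.28), while its ligand Slit2 differed little, at 261 CPM in Null and 236 CPM in Control cells. Cluster 214, with 24 Null cells and 1 Control cell and Itga8, Lhx2, Gdf10 and Robo2 itself as leading genes, had 174 CPM of Robo2 in the Null library. In cluster 202 Robo2 stood at 18.0 CPM in Null and 7.49 CPM in Control cells, and in cluster 205 at 18.3 CPM in Null and 3.40 CPM in Control cells. The netrin receptor Unc5b stood at 11.5 CPM in Null and 3.26 CPM in Control cells, a ratio of 1.82 (1.37 to 2.27), and 0.84 in the clusters both libraries filled. Unc5d went the other way, at 4.05 CPM in Null and 13.0 CPM in Control cells, a ratio of -1.68 (-2.22 to -1.17), and -0.81 in those clusters. Ephb1 stood at 10.4 CPM in Null and 3.39 CPM in Control cells, a ratio of 1.61 (1.16 to 2.06), and 0.24 with clusters weighted alike. The ephrin Efna3 stood at 18.2 CPM in Null and 6.52 CPM in Control cells, a ratio of 1.48 (1.16 to 1.81). Ephb1 and Efna3 also overlap genes on the opposite strand. The remaining members past the fold were low, at 9.01 CPM or less in either library: Plxnc1, Dcc and Sema6b higher in Null, and Sema7a and Ntn1 lower, with the interval of Sema6b (-0.24 to 2.29) including 0.

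**Figure D4:**
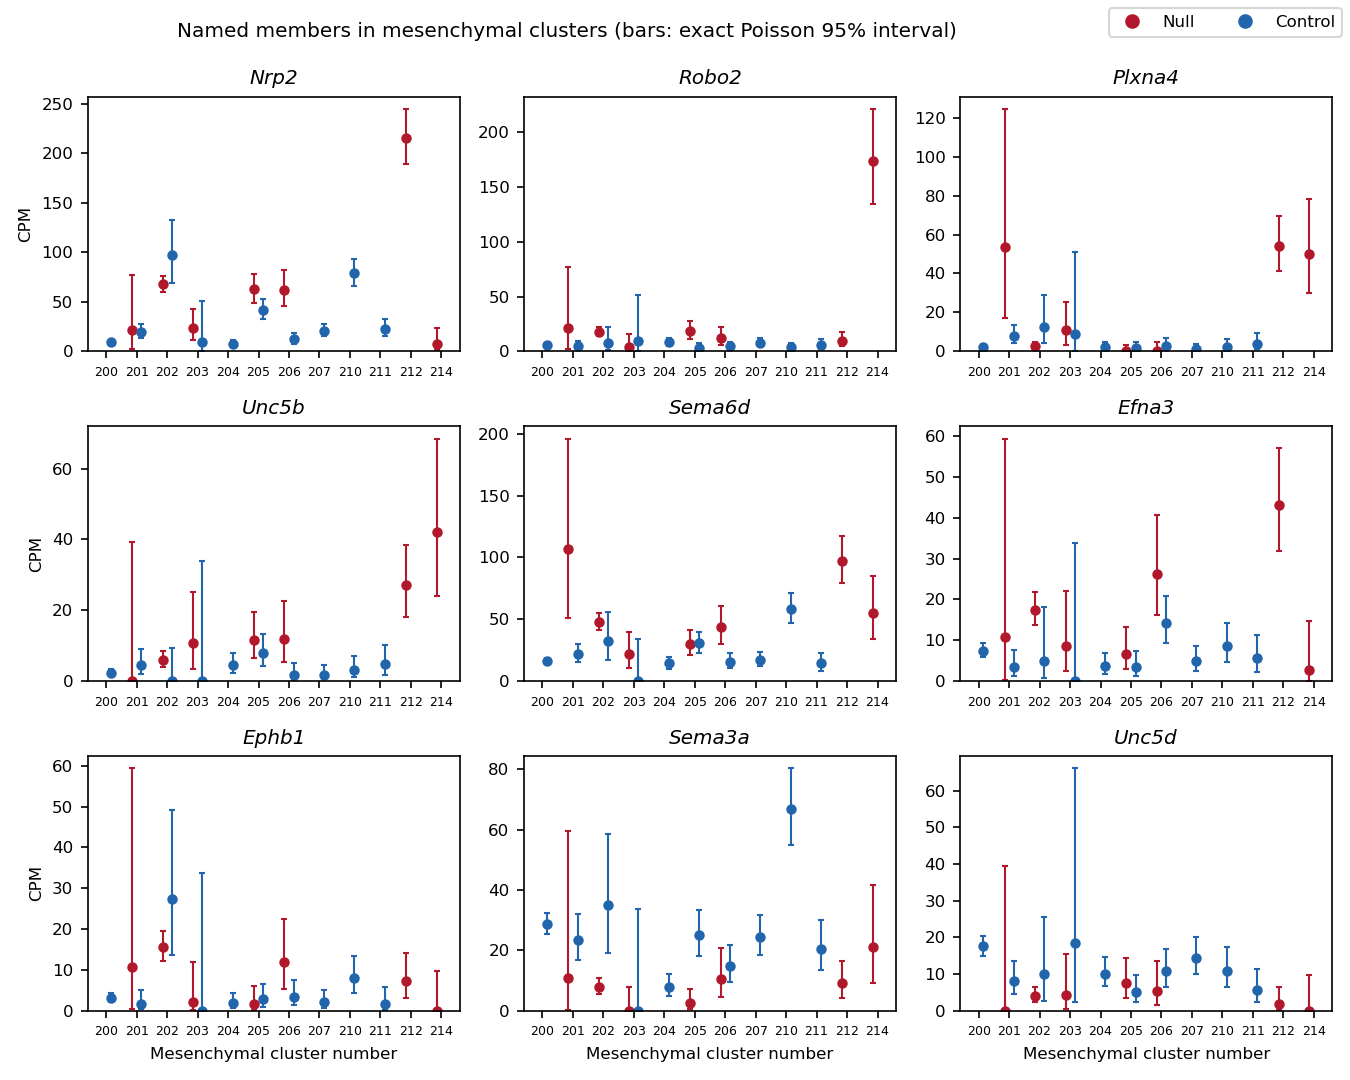
CPM of the 9 named members in each mesenchymal cluster (x axis) with at least 20 cells in that library, Null left and Control right, with exact Poisson 95% intervals. Nrp2 is highest in the Null cells of cluster 212 (216 CPM), Robo2 in those of cluster 214 (174 CPM) and Sema3a in the Control cells of cluster 210 (66.7 CPM).

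Leaving out cells with a UMI of Tlx1, Nkx2-5 or Barx1, transcription factor genes of the spleen and stomach mesenchyme, left 702 Null and 1517 Control cells. Robo2 stood at 1.64, Nrp2 at 2.03 and Sema3a at -1.66 on the log2 scale in those cells. The whole class held 808 Null and 2945 Control cells, so this removed more of the Control than of the Null cells. Tlx1 stood at 0.225 CPM in Null and 31.2 CPM in Control mesenchymal cells, and Barx1 at 37.4 and 143 CPM. The part of the removed cells in the ratios was not tested. UMIs of Robo2 were found in 12.6% of Null and 3.77% of Control mesenchymal cells (medians 11112 and 8110 UMIs), and in 0.350% of Null and 0.223% of Control acinar cells. Thinned to 2000 UMIs per cell, the mesenchymal shares were 5.04% (3.40 to 7.16) in the Null library and 1.12% (0.763 to 1.59) in the Control library.

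In mesothelial cells, which cover the organ and express Fgf9, a secreted semaphorin had the largest ratio. At least 2-fold higher in Null were 10 of 60 members measured, against 5.87% of all 14322 features, and at least 2-fold lower were 4, against 6.31%. By role, 5 of 33 ligands and 5 of 27 receptors were higher, and 3 ligands and 1 receptor were lower. The median log2 ratio was 0.02 for members and -0.04 for all features. Mesenchymal markers summed to 8635 CPM in Null and 2787 CPM in Control mesothelial cells, with 9 of 12 higher in Null and 1 at 0 in each library. Erythroid markers summed to 1020 CPM in Null and 265 CPM in Control mesothelial cells, with 8 of 8 higher in Null. The part of these in the ratios was not tested. Clusters 6 and 11 held most of the class in both libraries, and cluster 24 held 189 of 868 Null and 26 of 1724 Control cells.

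Sema3e (GRCm38 chromosome 5, 14025276 to 14256689, plus strand) stood at 27.1 CPM in Null and 2.28 CPM in Control mesothelial cells, a log2 ratio of 3.58 (3.08 to 4.11). It was low in mesenchymal cells, at 1.58 CPM in the Null library and 1.84 CPM in the Control library. Of its 274 Null UMIs in the class, 217 lay in cluster 24, at 60.9 CPM (53.1 to 69.6). In cluster 6, which both libraries filled, Sema3e stood at 9.39 CPM (7.07 to 12.2) in Null and 2.42 CPM (1.70 to 3.35) in Control cells. Sema3e was higher in the Null cells of both clusters, and the 26 Control cells of cluster 24 held 1 UMI. The share of mesothelial cells with a Sema3e UMI was 15.6% in the Null library and 2.20% in the Control library (medians 10472 and 9644.5 UMIs). In acinar cells it was 0.738% in the Null library and 0.612% in the Control library. Thinned to 2000 UMIs per cell, the mesothelial shares were 4.17% (2.72 to 6.1) in Null and 0.257% (0.0701 to 0.657) in Control, and the acinar shares were 0 of 2543 Null cells, which allows up to 0.118%, and 0.0559% in Control. Sema3e also stood at 2.00 CPM in Null and 0.832 CPM in Control ductal cells, and its receptor Plxnd1 was an endothelial gene in both libraries.

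Sema3b, a related secreted semaphorin, stood at 13.0 CPM in Null and 3.83 CPM in Control mesothelial cells, a log2 ratio of 1.76 (1.32 to 2.21). The Slit receptor Robo1 (chromosome 16, 72308306 to 73046095, plus strand) stood at 39.6 CPM in Null and 11.9 CPM in Control cells, a ratio of 1.74 (1.49 to 1.99). Robo1 was higher in the Null cells of all 3 clusters, for example at 41.8 CPM in Null and 12.8 CPM in Control cells of cluster 6. Cluster 6 held 191 of the 198 Control UMIs of Robo1, so the Control values of the other clusters rested on few UMIs. Unc5b stood at 20.9 CPM in Null and 8.27 CPM in Control cells, a ratio of 1.34 (1.02 to 1.66). Efnb2 stood at 44.4 CPM in Null and 18.8 CPM in Control cells, a ratio of 1.24 (1.03 to 1.46), and 0.62 with clusters weighted alike. The remaining members past the fold stood at 3.42 CPM or less in either library: Dcc, Unc5d, Sema4a and Sema3g higher in Null, and Sema7a, Sema5b and Sema4d lower. Dcc, the netrin receptor with the second largest ratio, had 27 UMIs in the Null and 5 in the Control library, a ratio of 3.16 (1.76 to 4.89), and the interval of Sema3g (-0.15 to 2.27) included 0.

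The ratios of Nrp1 and Ephb1 were not kept among cells with no UMI of Barx1. Barx1, a stomach mesenchyme factor, stood at 86.8 CPM in Null and 442 CPM in Control mesothelial cells. Nrp1 stood at 54.5 CPM in Null and 27.2 CPM in Control cells, a log2 ratio of 1.00 (0.82 to 1.19). Ephb1 was lower in the Null library, at 3.86 CPM against 13.1 CPM in the Control library, a ratio of -1.76 (-2.29 to -1.26). Among cells with no Barx1 UMI, 661 in the Null and 462 in the Control library, the ratio was -0.012 for Nrp1 and 0.15 for Ephb1. Within cluster 6, Nrp1 stood at 67.4 CPM in Null and 26.2 CPM in Control cells, and Ephb1 at 3.41 CPM in Null and 14.5 CPM in Control cells. Because Barx1 itself differed between the libraries, leaving out its cells removed more of the Control than of the Null cells, and the part of Barx1 cells in these ratios was not tested. Among the cells with no Barx1 UMI, the log2 ratio was 4.76 for Sema3e and 2.73 for Robo1. Ephb1 was higher in Null mesenchymal and lower in Null mesothelial cells, and the difference between these ratios was not tested.

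**Figure D5:**
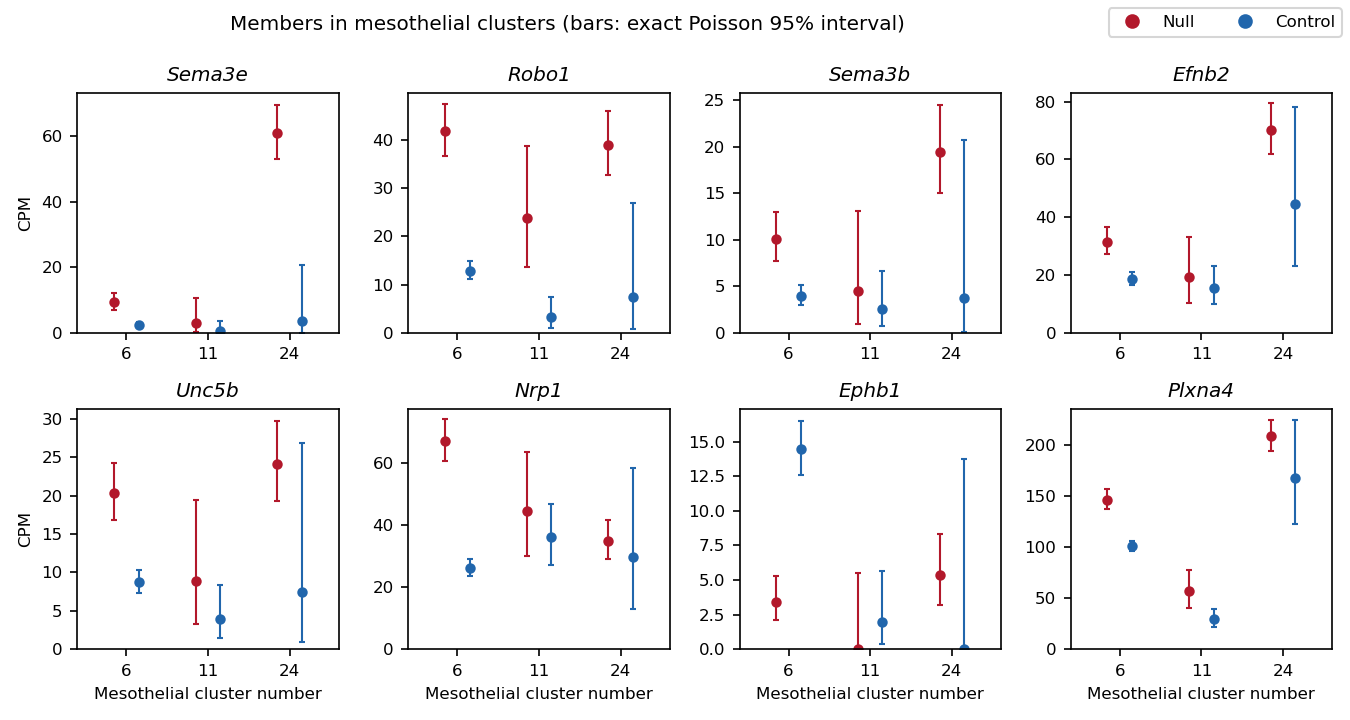
CPM of the 7 named mesothelial members and of Plxna4 in clusters 6, 11 and 24, Null left and Control right, with exact Poisson 95% intervals. Sema3e reaches 60.9 CPM in the Null cells of cluster 24, and Ephb1 reaches 14.5 CPM in the Control cells of cluster 6; the wide Control bars of cluster 24 rest on 26 cells.

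Acinar, ductal and endocrine cells held few members past the fold, and none met the rule for named genes. In acinar cells 1 of 59 members was at least 2-fold higher in Null, against 1.80% of 16627 features, and 3 were lower, against 3.45%. The higher member was Nrp2, at 5.89 CPM in Null and 2.28 CPM in Control cells, a log2 ratio of 1.37 (1.16 to 1.58). The lower members were Sema5a, Epha3 and Slit1, each at 3.75 CPM or less in either library. In ductal cells, which line the trunk of the epithelium, 3 of 59 members were higher, against 2.81% of 16147 features, and 4 lower, against 1.98%. Robo2 was among the higher ones, at 2.42 CPM in Null and 0.596 CPM in Control cells, a ratio of 2.02 (1.49 to 2.58). The Null ductal cells included the 57 cells of cluster 123, which held 0 Control cells, and no ratio without them is given here. In endocrine cells no member of 58 was at least 2-fold higher, against 1.06% of 14929 features, and 5 were lower, against 4.29%. The one with the most UMIs was Slit3, at 1.47 CPM in Null and 4.59 CPM in Control cells, a ratio of -1.65 (-2.33 to -1.01). Slit3 stood at 27.2 CPM in Null and 18.0 CPM in Control free RNA. The epithelial members named here were chosen after their values were seen. Every member that was lower in these classes stood below the free RNA level in the Null library. These members were picked as low in Null, which favours that outcome. The level is that of free RNA itself, not the amount carried into the cells. Free RNA made up 6.74% of Null ductal and 6.92% of Null endocrine UMIs, so no conclusion is drawn from this comparison. The Null free RNA level is also coarse: it rests on 478560 UMIs, where 1 UMI is 2.09 CPM, the level of Slit1. Robo2, a higher member, stood at 0 CPM in Null and 1.27 CPM in Control free RNA. The other higher members were not set against free RNA here.

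A list of 40 further axon guidance genes, co-receptors, intracellular mediators and proteases such as Neo1, Srgap3 and Adam10, was counted in the same way. In mesenchymal cells 4 of 36 measured were at least 2-fold higher in Null, against 5.12% of all features, and 2 lower, against 6.36%, with a median log2 ratio of 0.19. The netrin relative Ntng1, a membrane-bound netrin-G, stood at 27.5 CPM in Null and 3.82 CPM in Control cells, a ratio of 2.85 (2.49 to 3.21). Flrt3, an adhesion protein that binds Unc5 receptors, stood at 68.7 CPM in Null and 31.7 CPM in Control cells, a ratio of 1.12 (0.96 to 1.27). No naming rule was set for this list, so the genes given are examples. Their values by cluster or under the alternatives are not given here, and the libraries filled the mesenchymal class from different clusters. In mesothelial cells none of 36 was higher, against 5.87% of all features, and 4 were lower, against 6.31%. Among them were Chl1, an adhesion molecule of the L1 family, at 2.18 CPM in Null and 10.6 CPM in Control cells, and Rgma, a ligand of Neo1, at 3.47 CPM in Null and 8.69 CPM in Control cells. Ductal cells had none of 35 past the fold, against 2.81% of all features higher and 1.98% lower. Acinar cells had none higher and 1 lower of 36, against 1.80% and 3.45%. Endocrine cells had 2 higher and 2 lower of 39, against 1.06% and 4.29%. Among these, the intervals of Dscam (15 Null and 6 Control UMIs, -0.14 to 2.97) and Ngef (12 and 24 UMIs, -2.14 to 0.046) included 0. The interval of Crmp1, lower in Null mesothelial cells, also included 0 (-3.31 to 0.36).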

How the data were processed

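Gene expression was measured in single cells with 10x Genomics droplet libraries, 1 per group. Per the labels' protocols, pancreata were dissociated with TrypLE, and DAPI-negative cells were sorted after a size gate against doublets. The deposited values are raw UMI counts per gene and barcode, which the authors made with Cell Ranger 6.1.1 per the submitters' processing notes, with the mm10 build. No source used here gives the strand setting of the counting. Exons on the opposite strand overlap 15 members, and exons of other genes on the same strand overlap 4 (Nrp1, Ntn3, Plxnc1 and Sema4a). Coordinates are from GENCODE vM21 (99.8% of features matched).

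Barcodes with at least 1000 UMIs, 300 genes and under 15% mitochondrially encoded UMIs were kept. Scrublet in scanpy 1.11.5 called doublets per library and marked 520 of 9404 Null barcodes (5.53%). It found no automatic threshold for the Control library, so a score of 0.25 was used, which marked 220 of 27179 barcodes (0.809%). A repeat call, limited to barcodes with 5000 UMIs or more, marked 3.81% of Null and 9.09% of Control barcodes. Cells were clustered with 2000 variable genes, 30 principal components and Leiden at resolution 1. The thresholds for naming clusters were chosen with the data in view, and clusters with at least 50% repeat doublets stayed unnamed.

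For each class, the UMIs of a library were summed and given as CPM (per 1000000 UMIs) without haemoglobin and mitochondrially encoded genes. Log2 ratios carry exact conditional 95% intervals, and shares Clopper-Pearson intervals. A count of 0 was set to 3 counts. Libraries were compared in mesenchymal, mesothelial, acinar, ductal and endocrine cells, each with at least 200 cells per library, over features with at least 20 UMIs; at least 2-fold counted as past the fold. Endocrine progenitors and immune cells also exceeded 200 cells but were not on the list of classes to compare, and only their levels are given. Code was checked on simulated counts. Members named for a class had at least 50 UMIs, at least 10 CPM in the higher library, at least 50% of that library's overall CPM, a 2-fold difference and an interval excluding 0. Members named for levels had the most UMIs per family. The members and lists were chosen with earlier results of these data known.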

Additional observations from a re-analysis of the deposited data

How the results depend on the processing

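No paired analysis was possible because each group is 1 library. In mesenchymal cells the counts of members past the fold (10 higher, 4 lower) ranged from 9 to 14 higher and from 4 to 6 lower over all alternatives run. In mesothelial cells (10 higher, 4 lower), 6 were higher as a mean over cells, with clusters weighted alike or with at least 50 UMIs per gene. Thinned to 2000 UMIs, 5 were higher and 2 lower, and without Barx1 cells 2 were lower. In acinar cells (1 higher, 3 lower), thinning gave 2 higher and 1 lower, and clusters weighted alike gave 5 higher. In ductal cells (3 higher, 4 lower), thinning gave 0 higher and 1 lower, subtracting free RNA gave 6 higher, and the 50 UMI minimum gave 2 lower. In endocrine cells (0 higher, 5 lower), thinning gave 1 higher and 1 lower, the mean over cells 1 higher, clusters weighted alike 2 higher, the 50 UMI minimum 3 lower and free RNA subtraction 11 lower. The cause was not tested, except that thinning and the UMI minimum leave fewer genes measured. The share of all features past the fold under each alternative is not given here. These counts therefore show only how the member counts moved, not whether members differed from other features.

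Among values of the 9 mesenchymal genes named, 63 of 81 moved by less than counting error, 17 moved further and 1 changed sign. That was Plxna4, at -0.55 in clusters with at least 20 cells of each library, an alternative chosen after seeing the data. For the 7 mesothelial genes the counts were 47, 14 and 2 of 63, the sign changes being Nrp1 (-0.012) and Ephb1 (0.15) without Barx1 cells. For these genes the clusters with at least 20 cells of each library were the whole class (868 Null and 1724 Control cells). That alternative repeated the main values and could not move them. Scaling by a class's median ratio, another alternative, subtracted only a constant, 0.033 in mesenchymal and -0.018 in mesothelial cells. It could therefore move values little. Robo2, Sema3a and Efna3 in mesenchymal cells and Sema3e, Robo1, Sema3b and Unc5b in mesothelial cells were past the fold in every alternative run. In the clusters that both libraries filled, Nrp2 stood at 1.09 and Sema6d at 0.92. Free RNA subtraction was not run in acinar cells, which themselves hold the genes that would estimate it. Depth limits the low members: a class value of a few CPM in 26 cells can rest on 1 UMI.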

Other observations

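Neural-like cells fell into 2 clusters with different guidance genes. Cluster 28, with Phox2a, Tlx2 and Stmn2 among its leading genes, held 58 Null and 94 Control cells. Cluster 27, with Fabp7, Ednrb and Foxd3 among its leading genes, held 93 Null and 62 Control cells. The ephrin receptor Epha5 stood at 220 CPM in Null and 145 CPM in Control cells of cluster 28, and at 3.92 CPM in Null and 23.3 CPM in Control cells of cluster 27. Slit2 stood at 165 CPM in Null and 146 CPM in Control cells of cluster 28, and at 8.82 and 9.30 CPM in Null and Control cells of cluster 27. The netrin receptor Unc5c was likewise a cluster 28 gene, at 103 CPM in Null and 75.0 CPM in Control cells. The opposite pattern held for Sema3c, at 67.7 CPM in Null and 48.1 CPM in Control cells of cluster 27, and at 16.6 and 10.3 CPM in Null and Control cells of cluster 28. Within neural cells, Plxnb3 UMIs lay mainly in cluster 27, with 17 UMIs (16.7 CPM) in the Null library and 6 UMIs (9.30 CPM) in the Control library. These genes were chosen after their values were seen, and free RNA made up 24.3% of Null and 32.1% of Control neural UMIs.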
